A study of Homo sapiens and Mus musculus with 69 samples.

Results

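The secretory granule genes and prohormone convertases described here are *CHGA*, *CHGB*, *SCG2*, *SCG3*, *SCG5*, *SYP*, *PTPRN*, *PCSK1*, *PCSK2* and *CPE*. These 10 genes were chosen by name, with earlier results of these data known. All 10 were found among the 20516 genes of the human table and, by their mouse symbols, among the 18501 genes of the KP1 table. The study asked how NOTCH1 activation changes small cell lung cancer (SCLC), a neuroendocrine (NE) tumor, and measured bulk RNA-Seq in 69 libraries of 5 established SCLC lines, in 23 groups of 3 libraries. All values are log2(RPKM + 1), where RPKM is reads per kilobase of transcript, scaled for library size. On this scale a gene without reads is at 0, levels are per length, and changes of genes near 0 are understated.

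H82 was sequenced as parental cells and as cells carrying a doxycycline-inducible vector for the intracellular domain of NOTCH1 (*N1ICD*), without and with doxycycline, each with intact genes, with *REST* KO or with *STING* KO. H524 was sequenced as parental cells and with the *N1ICD* or a *REST* vector, each without and with doxycycline, and H69 as parental cells and with the *N1ICD* vector without and with doxycycline. COR-L88 received DMSO, the LSD1 inhibitor TAS1440, or TAS1440 with the γ-secretase inhibitor (GSI) BMS-708163, which blocks Notch cleavage, and *STING* KO cells of that line received DMSO or TAS1440. KP1, a mouse line with mutant *Rb1* and *Trp53*, received DMSO, TAS1440, or TAS1440 with the GSI DBZ. Vectors were delivered by lentivirus and selected with antibiotic, and KO cells were made with CRISPR-Cas9. The study shows KO cells as clones, each grown from a single cell, and whether the sequenced KO cells were such a clone, or which, is not given in the sources used here. After long-term doxycycline the adherent cells were collected, so a doxycycline library is of those cells. Neither the labels nor the methods tie the 3 libraries of a group to separate cultures, and *P* values measure only the spread between them.

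As background, neuroendocrine cells store peptide hormones in dense-core granules. Granins (chromogranins A and B, secretogranins) condense the granule core, PC1/3 (*PCSK1*) and PC2 (*PCSK2*) cut prohormones at basic residues, and carboxypeptidase E (*CPE*) trims the ends they leave. Synaptophysin (*SYP*) is a vesicle membrane protein, IA-2 (*PTPRN*) is a granule membrane protein of the phosphatase family, and chromogranin A and synaptophysin are the stains by which pathologists recognize neuroendocrine tumors. REST is a repressor that keeps neuronal and neuroendocrine genes silent in other cells through DNA elements called RE1 sites.

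Library sizes are known only relative to the median library, and lay between 0.693 and 1.526 in the human table and between 0.895 and 1.117 in KP1. *NOTCH1* was 1.16 without and 4.86 with doxycycline in H82 *N1ICD* cells, 1.20 and 8.06 in H524, and 0.39 and 7.99 in H69 (group means). *REST* mRNA stayed present in H82 *REST* KO libraries, at 4.11 without and 5.26 with doxycycline against 4.64 and 6.31 in intact cells, and its protein was not measured here. *STING1* is listed as *TMEM173*. Its mRNA was not lower in H82 libraries labelled *STING* KO, at 0.39 without and 1.61 with doxycycline against 0.015 and 1.11 in intact cells, whereas with TAS1440 it was 1.07 in COR-L88 *STING* KO against 2.20 in intact cells. A knockout can leave the mRNA in place, so the labels were kept. The study shows immunoblots of *STING* KO clones of both lines, and the protein was not measured here. Of the neuroendocrine markers, *NEUROD1* was at 13.31 in parental H82 and 13.79 in parental H524. H69 cells with the uninduced vector stood apart from their parent, with *NEUROD1* at 9.39 against 4.37. Of the markers of blood, endothelial and liver cells, *PTPRC* reached at most 0.38, *CD3E* 0.14, *LYZ* 0.34, *CDH5* 0.24 and *ALB* 0.35 in any human library, and *CD68* reached 3.21. *CD68* was at 0.012 in COR-L88 with DMSO, 2.05 with TAS1440 and 0.0099 with TAS1440 and GSI, and its part in the results was not tested. In bulk RNA, fewer cells with a transcript and less of it per cell cannot be told apart.

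RE1 sites are shown first, since the *REST* KO and *REST* overexpression comparisons concern them. GRCh37 was searched on both strands within 10000 bases of the start of each of 17221 protein-coding genes for both parts of the RE1 consensus, TTCAGCACC and GGACAGC, with 2 free bases between them. An exact match of all 16 fixed letters lay near 40 genes, 0.232% of those searched, among them *CHGA* and *PTPRN*. With at most 1 mismatch 188 genes (1.09%) had a site, and *CHGB* joined, and with at most 2 mismatches 682 genes (3.96%) had one, and *SYP* joined. Capitals mark the letters that match the consensus.
CHGA: TTCAGCACCgcGGACAGC
CHGB: gTCAGCACCgcGGACAGC
SYP: TcCAGCACCgtGGACAGa
PTPRN: TTCAGCACCgcGGACAGC

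The *CHGA* site lies at chr14:93389868-93389885, on the strand of the gene, 373 bases into its transcript in an intron, and a further site with 1 mismatch lies 8907 bases upstream at chr14:93380588-93380605. The *CHGB* site is at chr20:5892350-5892367, in an intron 194 bases from the start. The *SYP* site is on the minus strand at chrX:49056584-49056601, in an intron 76 bases from the start. The *PTPRN* site is on the minus strand at chr2:220173044-220173061, 1309 bases from the start of the gene, in sequence that the annotation gives as an exon only of a retained-intron transcript. A match of letters does not show that REST was bound there, and no match says only that these letters were not in the window.

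RefSeq promoters (GRCh38.p14, 250 bases before to 50 after a start) were given for 8 of the 10 genes, the exceptions being *CHGB* and *SCG2*. The *SCG3* promoter held both RE1 parts with 8 bases between them, starting 9 bases after the start site on the gene's strand (chr15:51681511-51681534). This wider arrangement was found in 3 of 35116 promoters, 0.00854%. The spacing counted was that of *SCG3* itself and no other was counted, so this share is no result about that gene. The cAMP response element TGACGTCA was in 1.85% of promoters and in those of *CHGA* and of *PCSK1*, where it began 54 and 77 bases before the start. In the stretches below capitals mark the RE1 parts of *SCG3* and the response elements in the 100 bases before the starts of *CHGA* (chr14:92923050-92923149, plus strand) and *PCSK1* (chr5:96433249-96433348, minus strand).
SCG3: TTCAGCACCcacagggcGGACAGC
CHGA: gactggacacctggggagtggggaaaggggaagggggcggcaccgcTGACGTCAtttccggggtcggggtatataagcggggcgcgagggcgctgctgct
PCSK1: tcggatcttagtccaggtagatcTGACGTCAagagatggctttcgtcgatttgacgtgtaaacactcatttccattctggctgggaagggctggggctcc

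In untreated cells the lines differed most in *PCSK1*, *PTPRN* and *SCG2* and least in *SCG3*, by the span of their means. A gene was called where the adjusted *P* of limma was below 0.05 and its log2 fold change was 1 or more in either direction. *SCG3*, which encodes a granin that tethers others to the granule membrane, was among the 107 highest of the 20516 genes in all 4 human lines. Its level was 11.85 ± 0.087 in H69, 11.61 ± 0.40 in H524, 11.34 ± 0.16 in H82 and 10.93 ± 0.12 in COR-L88 with DMSO (mean ± SD, n = 3 here and below), and it was not called in any of the 6 pairs of lines. *PCSK1* was 8.71 ± 0.10 in H69 and 7.85 ± 0.15 in COR-L88 against 2.76 ± 0.44 in H524 and 1.81 ± 0.31 in H82, so the lines fell into a high and a low pair. *SCG2*, a precursor of the peptide secretoneurin, had the same pairs, with 6.20 ± 0.18 in H69, 5.63 ± 0.23 in COR-L88, 1.76 ± 0.40 in H524 and 1.50 ± 0.25 in H82. *PCSK2* was 8.20 ± 0.31 in COR-L88, 7.93 ± 0.089 in H69, 5.45 ± 0.53 in H524 and 4.17 ± 0.94 in H82. Within the high pair the difference missed the rule for all 3 of these genes, and within the low pair only *PCSK2* was called, with overlapping libraries (log2 fold change -1.28, SE 0.40, adjusted *P* = 0.0177 for H82 minus H524).

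*CHGA* was 6.29 ± 0.25 in H69, 5.42 ± 0.11 in H82, 4.93 ± 0.32 in H524 and 4.71 ± 0.12 in COR-L88, and no neighbours in this order were called. *CHGB* was 6.67 ± 0.37 in H524, 6.64 ± 0.11 in H69, 5.34 ± 0.10 in H82 and 4.41 ± 0.055 in COR-L88, with H524 and H69 not told apart, H69 above H82 (log2 fold change -1.30, SE 0.17, adjusted *P* = 3.91e-05 for H82 minus H69), and H82 and COR-L88 not called. *SYP* was 6.29 ± 0.19 in H82, 6.23 ± 0.43 in H524, 5.61 ± 0.08 in H69 and 4.95 ± 0.13 in COR-L88, and no neighbours were called. *PTPRN* was 7.84 ± 0.42 in H524, 7.63 ± 0.25 in H69 and 6.43 ± 0.47 in H82 but 2.97 ± 0.77 in COR-L88, a gap to H82 of 3.46 (SE 0.37). *SCG5*, which encodes 7B2, the chaperone of PC2, was 3.73 ± 0.044 in H69, 1.90 ± 0.14 in COR-L88, 1.78 ± 0.45 in H82 and near 0 in H524, at 0.017, 0.029 and 0.082. H524 thus listed its convertase *PCSK2* at 5.45 beside a chaperone near 0. *CPE* was 7.00 ± 0.16 in H524, 6.81 ± 0.34 in H82, 5.84 ± 0.10 in H69 and 5.41 ± 0.32 in COR-L88.

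Called members numbered 4 of 10 between H82 and H524, where 31.1% of the 14047 genes tested were called, 6 between H82 and H69 (45.7% of the 14047 genes tested), 6 between H82 and COR-L88 (40.2% of the 14047 genes tested), 6 between H524 and H69 (33.5% of the 14047 genes tested), 8 between H524 and COR-L88 (34.6% of the 14047 genes tested) and 4 between H69 and COR-L88 (34.1% of the 14047 genes tested). COR-L88 received DMSO where the other lines were untreated, and this cannot be told apart from the line.

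**Figure D1:**
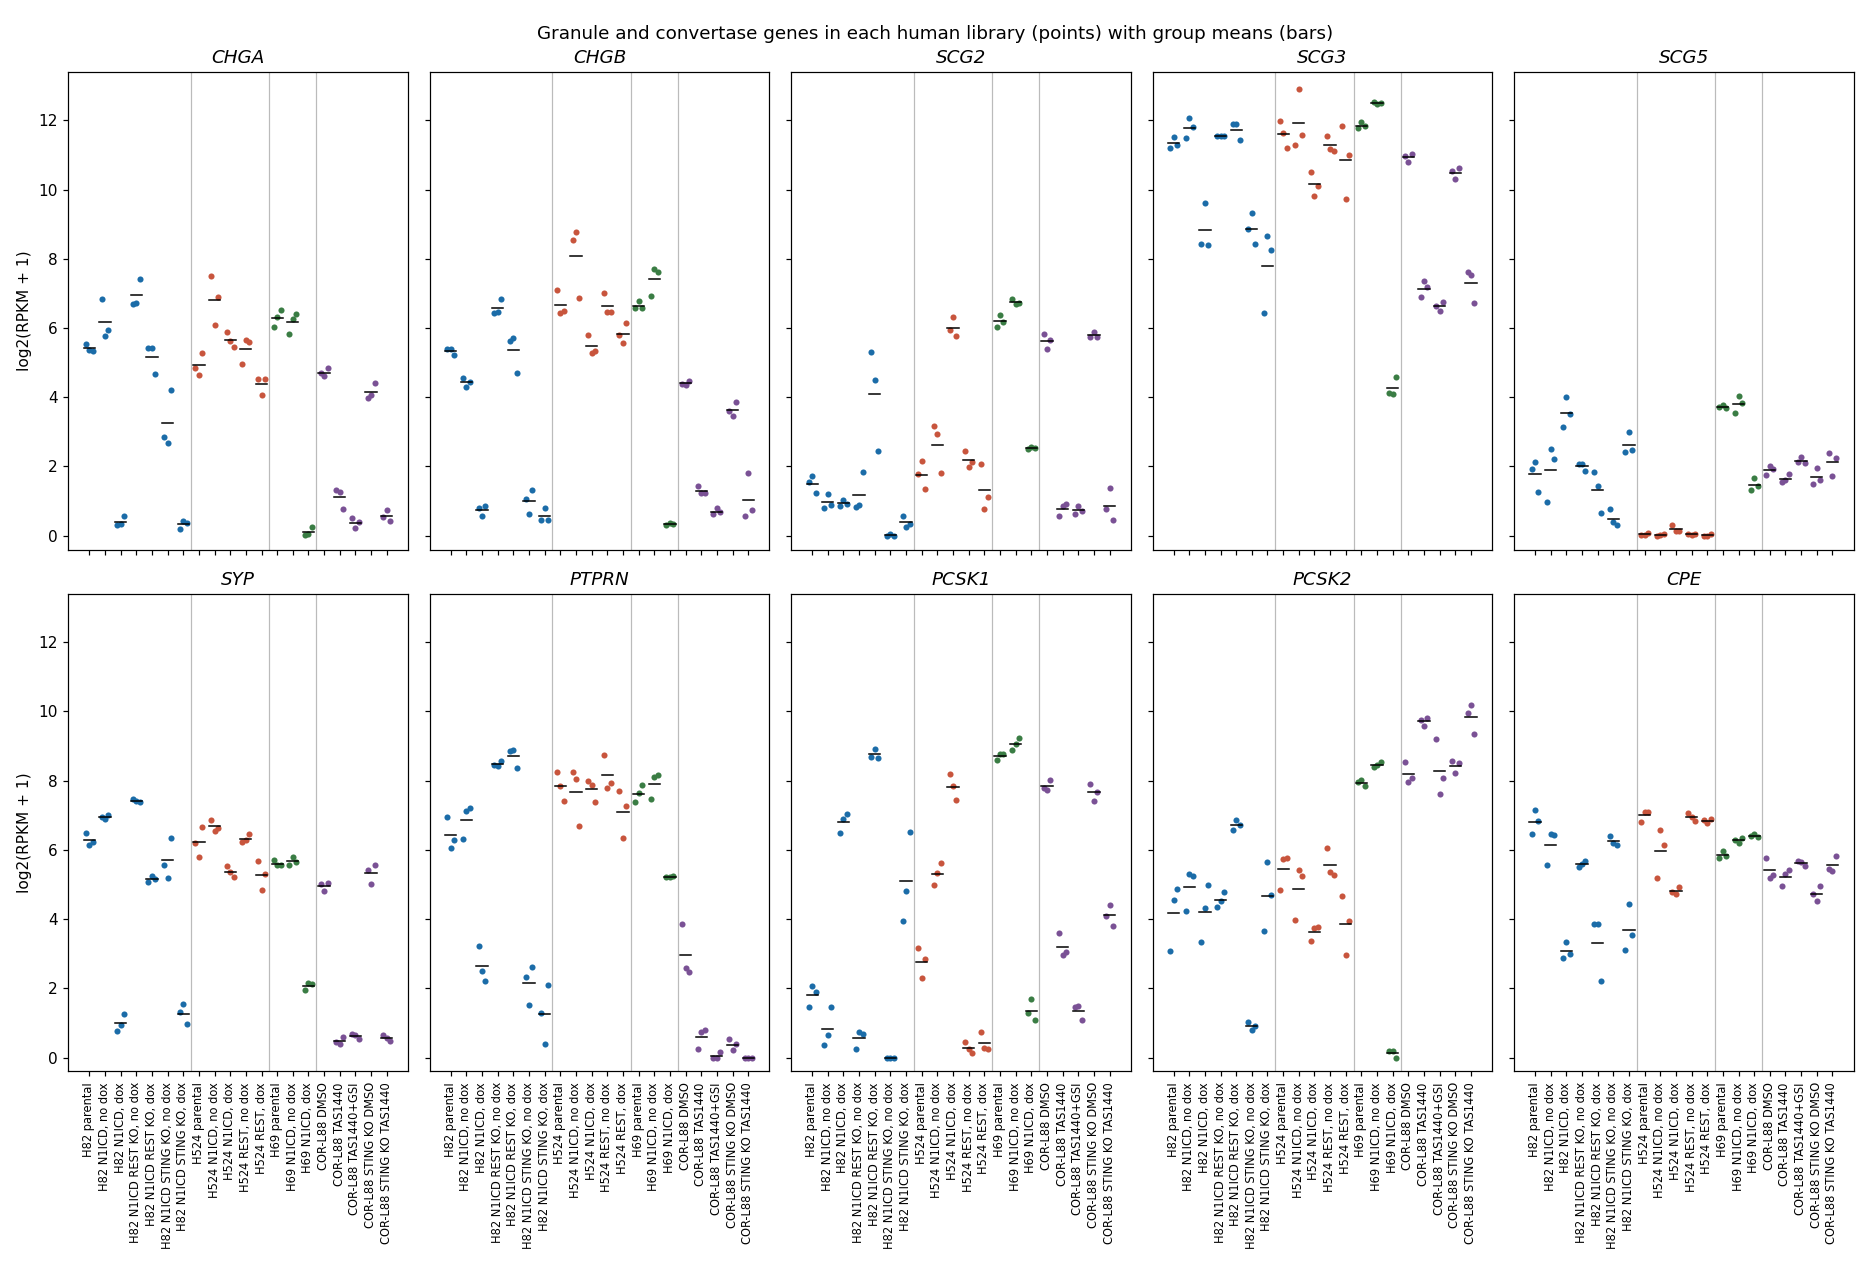
Log2(RPKM + 1) of the 10 genes in all 60 human libraries, with points for libraries, black bars for means of 3 and colors for the lines H82 (blue), H524 (red), H69 (green) and COR-L88 (purple). *CHGA*, *CHGB* and *SYP* drop close to the floor in several induced or treated groups, *PCSK1* climbs in H82 and H524 and drops in H69 and COR-L88, and *CPE* stays at or above 2.22 in every library.

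Induction of *N1ICD* lowered *CHGA*, *CHGB*, *SCG3* and *SYP* in H82, H524 and H69, and *PTPRN* in H82 and H69. *PCSK1* rose in H82 and H524 and fell in H69. In H82, 8 of the 10 genes were called, 2 higher and 6 lower, where 27.1% of the 13903 genes tested were called. The median log2 fold change was -3.02 over the members and -0.0026 over all genes. In H524, 8 of 9 tested members were called, 2 higher and 6 lower, against 18.6% of the 13648 genes tested, with medians of -1.16 and -0.018. In H69, 9 of 10 were called, all lower, against 41.8% of the 13580 genes tested, with medians of -5.13 and 0.083. *SCG5* was not tested in H524, where no library exceeded 0.31.

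*CHGA* in H82 *N1ICD* cells was 6.85, 5.76 and 5.93 in the libraries without doxycycline and 0.30, 0.34 and 0.58 with it. The groups lay far apart, and *CHGA* went from a well expressed gene to the floor (log2 fold change -5.78, SE 0.34, adjusted *P* = 2.51e-10). In H69 it was 5.83, 6.26 and 6.42 without and 0.028, 0.054 and 0.25 with doxycycline (log2 fold change -6.06, SE 0.17, adjusted *P* = 5.66e-09). In H524 it was 7.49, 6.08 and 6.89 without and 5.89, 5.62 and 5.46 with doxycycline (log2 fold change -1.16, SE 0.31, adjusted *P* = 0.0116), and the induced level remained above that of parental H524, at 4.85, 4.65 and 5.28. Without library 22, the highest of the uninduced, the H524 change shrank to -0.82 and missed the fold threshold, and fitted on the compared groups alone it missed the adjusted *P* (-1.16, adjusted *P* = 0.0546 by limma).

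*CHGB*, the second chromogranin, was 4.54, 4.30 and 4.45 without and 0.81, 0.56 and 0.85 with doxycycline in H82 (log2 fold change -3.69, SE 0.23, adjusted *P* = 4.89e-10). H69 had 6.93, 7.70 and 7.62 without and 0.30, 0.36 and 0.33 with doxycycline (log2 fold change -7.09, SE 0.18, adjusted *P* = 3.07e-09). H524 had 8.55, 8.79 and 6.86 without and 5.81, 5.27 and 5.33 with doxycycline (log2 fold change -2.60, SE 0.40, adjusted *P* = 0.000211). *CHGB* thus fell in all 3 lines with groups that did not overlap, to below 1 in H82 and H69 and to 5.27 or more in H524.

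*SCG3* was 11.48, 12.06 and 11.82 without and 8.43, 9.62 and 8.41 with doxycycline in H82 (log2 fold change -2.97, SE 0.42, adjusted *P* = 1.43e-05). In H69 it was 12.53, 12.48 and 12.50 and then 4.12, 4.09 and 4.59 (log2 fold change -8.24, SE 0.13, adjusted *P* = 1.85e-10). H524 had 11.29, 12.90 and 11.58 without and 10.52, 9.82 and 10.10 with doxycycline (log2 fold change -1.77, SE 0.48, adjusted *P* = 0.0119). *SCG3* fell in each of the 3 lines with groups that did not overlap, and its induced mean was still 8.82 in H82 and 10.15 in H524. The H524 call was lost without library 26 (-1.61, adjusted *P* = 0.0511).

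*SCG2* was called higher in H524, lower in H69 and not in H82. In H82 it was low throughout, with 0.81, 1.20 and 0.89 without and 0.86, 1.04 and 0.92 with doxycycline (log2 fold change -0.028, SE 0.46, adjusted *P* = 0.967). In H524 it rose from 3.17, 2.93 and 1.80 to 5.95, 6.31 and 5.78 (log2 fold change 3.38, SE 0.37, adjusted *P* = 9.01e-06), whereas in H69 it fell from 6.84, 6.69 and 6.71 to 2.52, 2.56 and 2.55 (log2 fold change -4.20, SE 0.092, adjusted *P* = 1.3e-09). *SCG5* rose in H82, from 0.97, 2.51 and 2.22 to 3.15, 4.01 and 3.51 (log2 fold change 1.66, SE 0.36, adjusted *P* = 0.000947), and fell in H69, from 3.55, 4.05 and 3.84 to 1.33, 1.66 and 1.42 (log2 fold change -2.35, SE 0.13, adjusted *P* = 3.65e-07). These opposite directions in 2 lines were not tested against each other.

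*SYP* was 6.96, 6.90 and 7.01 without and 0.78, 0.94 and 1.26 with doxycycline in H82 (log2 fold change -5.97, SE 0.23, adjusted *P* = 8.86e-13). H69 had 5.57, 5.78 and 5.64 and then 1.96, 2.16 and 2.13 (log2 fold change -3.58, SE 0.082, adjusted *P* = 1.67e-09), and H524 6.85, 6.55 and 6.64 and then 5.52, 5.35 and 5.23 (log2 fold change -1.32, SE 0.23, adjusted *P* = 0.000644). The fall of this vesicle marker was called in all 3 lines, with non-overlapping groups. *PTPRN* was 6.31, 7.12 and 7.20 without and 3.21, 2.50 and 2.22 with doxycycline in H82 (log2 fold change -4.23, SE 0.39, adjusted *P* = 5.97e-08) and 7.47, 8.09 and 8.17 and 5.23, 5.21 and 5.24 in H69 (log2 fold change -2.69, SE 0.19, adjusted *P* = 1.51e-06). In H524 it was 8.24, 8.06 and 6.69 without and 8.00, 7.86 and 7.39 with doxycycline, overlapping groups with a difference of 0.089 (SE 0.43).

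Both convertases had other directions than *CHGA* and *CHGB* in at least 1 comparison. *PCSK1* was 0.36, 0.65 and 1.45 without and 6.50, 6.89 and 7.05 with doxycycline in H82, a rise from near the floor to above 6 in each library (log2 fold change 5.99, SE 0.43, adjusted *P* = 2.6e-09). In H524 it rose from 4.97, 5.33 and 5.63 to 8.18, 7.84 and 7.43 (log2 fold change 2.51, SE 0.26, adjusted *P* = 4.49e-06). In H69, where the gene started high, it fell from 8.88, 9.07 and 9.23 to 1.28, 1.69 and 1.08 (log2 fold change -7.71, SE 0.15, adjusted *P* = 7.81e-10). *PCSK1* in uninduced H524 differed with the vector, being 3.16, 2.29 and 2.84 in parental cells, 4.97, 5.33 and 5.63 with the *N1ICD* vector and 0.46, 0.25 and 0.14 with the *REST* vector.

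*PCSK2* was 4.23, 5.30 and 5.25 without and 3.33, 4.31 and 5.00 with doxycycline in H82, overlapping groups (log2 fold change -0.71, SE 0.49, adjusted *P* = 0.234). It fell in H69, from 8.38, 8.45 and 8.55 to 0.20, 0.19 and 0 (log2 fold change -8.33, SE 0.08, adjusted *P* = 1.7e-11), the largest fall among the 10 genes there. In H524 the values were 3.97, 5.42 and 5.24 without and 3.38, 3.76 and 3.76 with doxycycline (log2 fold change -1.24, SE 0.45, adjusted *P* = 0.0484), a call that did not survive leaving out 5 of the 6 libraries in turn, nor a fit on the compared groups alone (adjusted *P* = 0.0589 by limma). *CPE* fell in H82, from 5.55, 6.47 and 6.42 to 2.88, 3.35 and 2.99 (log2 fold change -3.07, SE 0.38, adjusted *P* = 3.22e-06), and in H524, from 5.19, 6.57 and 6.15 to 4.78, 4.72 and 4.93 (log2 fold change -1.16, SE 0.26, adjusted *P* = 0.00342), where the call was lost without library 23 (-0.86). In H69 *CPE* was the exception among the members, with 6.29, 6.21 and 6.34 without and 6.40, 6.46 and 6.38 with doxycycline (log2 fold change 0.13, SE 0.068, adjusted *P* = 0.0965).

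**Figure D2:**
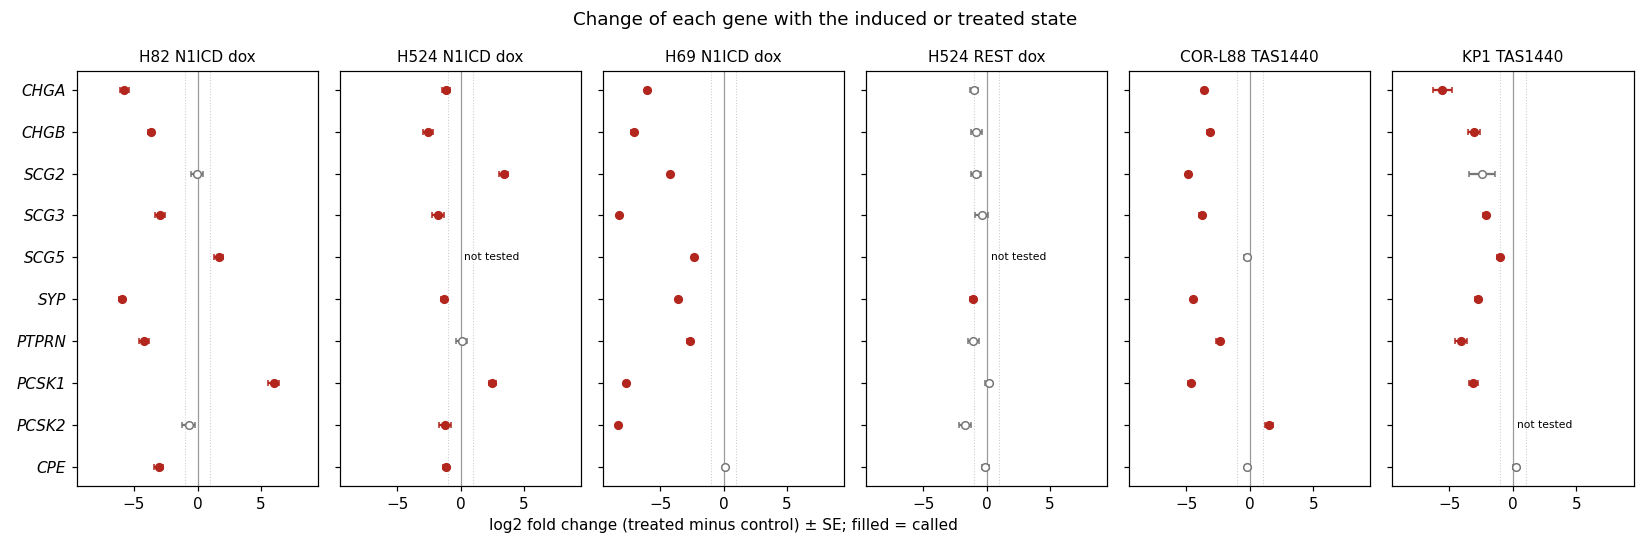
Log2 fold change ± SE (limma) of each gene between induced or treated and control libraries, 3 against 3, with filled red points for called genes and dotted lines at 1 and -1. *CHGA*, *CHGB*, *SCG3* and *SYP* lie left of 0 in all 6 panels, while *PCSK1* lies right of 0 in the H82 and H524 *N1ICD* panels and left in H69, COR-L88 and KP1.

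Between uninduced *N1ICD* cells and parental cells 0 members were called in H82, where 6.41% of the 13903 genes tested were called, and 0 in H69, against 5.27% of the 13580 genes tested. At an unadjusted *P* under 0.05 by limma the counts were 4 in H82 and 5 in H69. The share of all genes under that unadjusted rule was not counted, so these counts are no result about the members. In H524, 4 of 9 tested members were called, against 12.1% of the 13648 genes tested: *CHGA* (1.89), *CHGB* (1.40, overlapping groups) and *PCSK1* (2.55) were higher and *CPE* (-1.03) lower in uninduced *N1ICD* cells than in parental cells. Beside this, uninduced H524 libraries 22, 23 and 24 differed among themselves, with *CHGB* at 8.55, 8.79 and 6.86, and leaving out library 20, 21 or 22 left 2 called members. H524 cells with the uninduced *REST* vector had 1 called member, *PCSK1* (-2.48), against 0.264% of the 13648 genes tested.

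*REST* overexpression in H524 changed 1 of the 9 tested members. With doxycycline *REST* was 6.87, 10.72 and 9.43 in the *REST* vector cells against 5.05, 5.03 and 4.90 without it, so library 37 carried the least. Only *SYP* was called, where 1.87% of the 13648 genes tested were called, from 6.22, 6.30 and 6.47 to 5.69, 4.83 and 5.30 (log2 fold change -1.06, SE 0.23, adjusted *P* = 0.0303). That call was lost on leaving out any 1 library other than 37. The median over the 9 tested members was -0.86, against 0.011 over all genes, and 8 of the 9 had negative fold changes. *PCSK2* was 6.06, 5.37 and 5.26 without and 4.68, 2.96 and 3.93 with doxycycline (log2 fold change -1.71, SE 0.45, adjusted *P* = 0.0596), and without library 37 it was called, at -2.12. *CHGA* was 4.96, 5.65 and 5.59 and 4.52, 4.08 and 4.53 (log2 fold change -1.02, SE 0.31, adjusted *P* = 0.102), and *PTPRN* 8.75, 7.80 and 7.94 and 7.70, 6.33 and 7.27 (log2 fold change -1.06, SE 0.43, adjusted *P* = 0.219). Neither gene's groups overlapped, and neither passed the test. *CPE* was 7.07, 6.94 and 6.84 and 6.87, 6.78 and 6.89, and *PCSK1* reached at most 0.73 in these 6 libraries.

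The responses to *N1ICD* and *REST* in H524 were compared by their difference in the same model, in which 3 members were called against 15.6% of the 13648 genes tested. *SCG2* (log2 fold change 4.24, SE 0.53, adjusted *P* = 6.15e-05) and *PCSK1* (log2 fold change 2.37, SE 0.36, adjusted *P* = 0.000378) responded more upward to *N1ICD*, and *CHGB* (log2 fold change -1.78, SE 0.57, adjusted *P* = 0.0432) more downward. For *SYP*, called in both comparisons, the responses were not told apart (-0.26, SE 0.33). Between the 2 induced states 4 members were called, against 23.8% of the 13648 genes tested: *PCSK1* (7.40), *SCG2* (4.69) and *CHGA* (1.28) were higher and *CPE* (-2.04) lower with *N1ICD* than with *REST*. The 2 vector lines already differed without doxycycline, so these gaps are not effects of induction alone. Uninduced means with the *N1ICD* and *REST* vectors were 5.31 and 0.28 for *PCSK1*, 2.63 and 2.18 for *SCG2*, 6.82 and 5.40 for *CHGA* and 5.97 and 6.95 for *CPE*.

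In H82 cells with induced *N1ICD*, most granule genes were higher with *REST* KO. With doxycycline, 9 of the 10 genes were called between *REST* KO and intact cells, 8 higher and 1 lower, where 17.6% of the 13903 genes tested were called. The median was 3.03 over the members and -0.059 over all genes. *NOTCH1* was also higher in these KO libraries, at 8.76, 9.15 and 10.74 against 4.75, 4.26 and 5.56 (log2 fold change 4.69, SE 0.44, adjusted *P* = 2.06e-07), and whether this bears on the members was not tested. *NEUROD1*, the lineage factor of this line, was 6.02 in induced KO and 4.72 in induced intact cells, against 14.01 and 13.81 without doxycycline, and *NEUROD1* was thus low in both induced groups.

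*PTPRN*, with an exact RE1 match, was 8.87, 8.88 and 8.35 in induced *REST* KO libraries against 3.21, 2.50 and 2.22 in intact ones (log2 fold change 6.06, SE 0.39, adjusted *P* = 1.66e-09). *CHGA*, also with an exact match, was 5.43, 5.41 and 4.67 against 0.30, 0.34 and 0.58 (log2 fold change 4.76, SE 0.34, adjusted *P* = 9.47e-09). *CHGB*, with 1 mismatch, was 5.63, 5.72 and 4.71 against 0.81, 0.56 and 0.85 (log2 fold change 4.61, SE 0.23, adjusted *P* = 8.25e-11). *SYP*, with 2 mismatches, was 5.08, 5.25 and 5.17 against 0.78, 0.94 and 1.26 (log2 fold change 4.17, SE 0.23, adjusted *P* = 1.85e-10), and *SCG3*, with the widely spaced parts, 11.88, 11.88 and 11.44 against 8.43, 9.62 and 8.41 (log2 fold change 2.91, SE 0.42, adjusted *P* = 3.69e-05). For these 5 genes every KO library was above every intact library, and the share of all genes so separated was not counted. Whether the sites bear on these differences was not tested, and sites were listed for the 10 members only.

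*SCG2* was 5.31, 4.50 and 2.44 in induced *REST* KO cells against 0.86, 1.04 and 0.92 in intact cells (log2 fold change 3.15, SE 0.46, adjusted *P* = 3.48e-05), with KO library 33 below the other two. *PCSK2* was 6.57, 6.87 and 6.71 against 3.33, 4.31 and 5.00 (log2 fold change 2.50, SE 0.49, adjusted *P* = 0.000625), and *PCSK1* 8.70, 8.91 and 8.67 against 6.50, 6.89 and 7.05 (log2 fold change 1.95, SE 0.43, adjusted *P* = 0.00164), so both convertases were higher with the KO. *SCG5* alone was lower, 1.85, 1.43 and 0.65 against 3.15, 4.01 and 3.51 (log2 fold change -2.25, SE 0.36, adjusted *P* = 9.98e-05). *CPE* was 3.87, 3.86 and 2.22 against 2.88, 3.35 and 2.99, overlapping groups with a difference of 0.24 (SE 0.38).

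Within *REST* KO cells doxycycline still changed 7 members, 3 higher and 4 lower, against 29.9% of the 13903 genes tested, and the median was -0.26. *CHGA* went from 6.71, 6.73 and 7.40 to 5.43, 5.41 and 4.67 (log2 fold change -1.78, SE 0.34, adjusted *P* = 0.00031) and *SYP* from 7.46, 7.40 and 7.39 to 5.08, 5.25 and 5.17 (log2 fold change -2.25, SE 0.23, adjusted *P* = 1.54e-07). *CHGB* went from 6.42, 6.47 and 6.83 to 5.63, 5.72 and 4.71 (log2 fold change -1.22, SE 0.23, adjusted *P* = 0.00025), and without library 33 its change of -0.90 missed the fold threshold. *CPE* also fell, from 5.52, 5.59 and 5.69 to 3.87, 3.86 and 2.22 (log2 fold change -2.28, SE 0.38, adjusted *P* = 7.77e-05). *PTPRN* (0.22, SE 0.39) and *SCG3* (0.18, SE 0.42) were not called. *PCSK1* rose from 0.25, 0.75 and 0.68 to 8.70, 8.91 and 8.67 (log2 fold change 8.20, SE 0.43, adjusted *P* = 2.69e-11), and *SCG2* (2.90) and *PCSK2* (2.16) rose as well.

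The difference between the responses of *REST* KO and intact cells was called for 9 members, 8 higher and 1 lower, against 12.9% of the 13903 genes tested. It was 4.46 (SE 0.54) for *PTPRN*, 4.00 (SE 0.49) for *CHGA*, 3.72 (SE 0.32) for *SYP*, 3.14 (SE 0.60) for *SCG3* and 2.47 (SE 0.33) for *CHGB*. *CPE* was the exception (0.79, adjusted *P* = 0.355). Without doxycycline, *REST* KO raised *CHGB*, from 4.54, 4.30 and 4.45 to 6.42, 6.47 and 6.83 (log2 fold change 2.14, SE 0.23, adjusted *P* = 1.21e-05), and *PTPRN*, from 6.31, 7.12 and 7.20 to 8.45, 8.42 and 8.56 (log2 fold change 1.60, SE 0.39, adjusted *P* = 0.00962), 2 of 10 members against 6.24% of the 13903 genes tested.

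**Figure D3:**
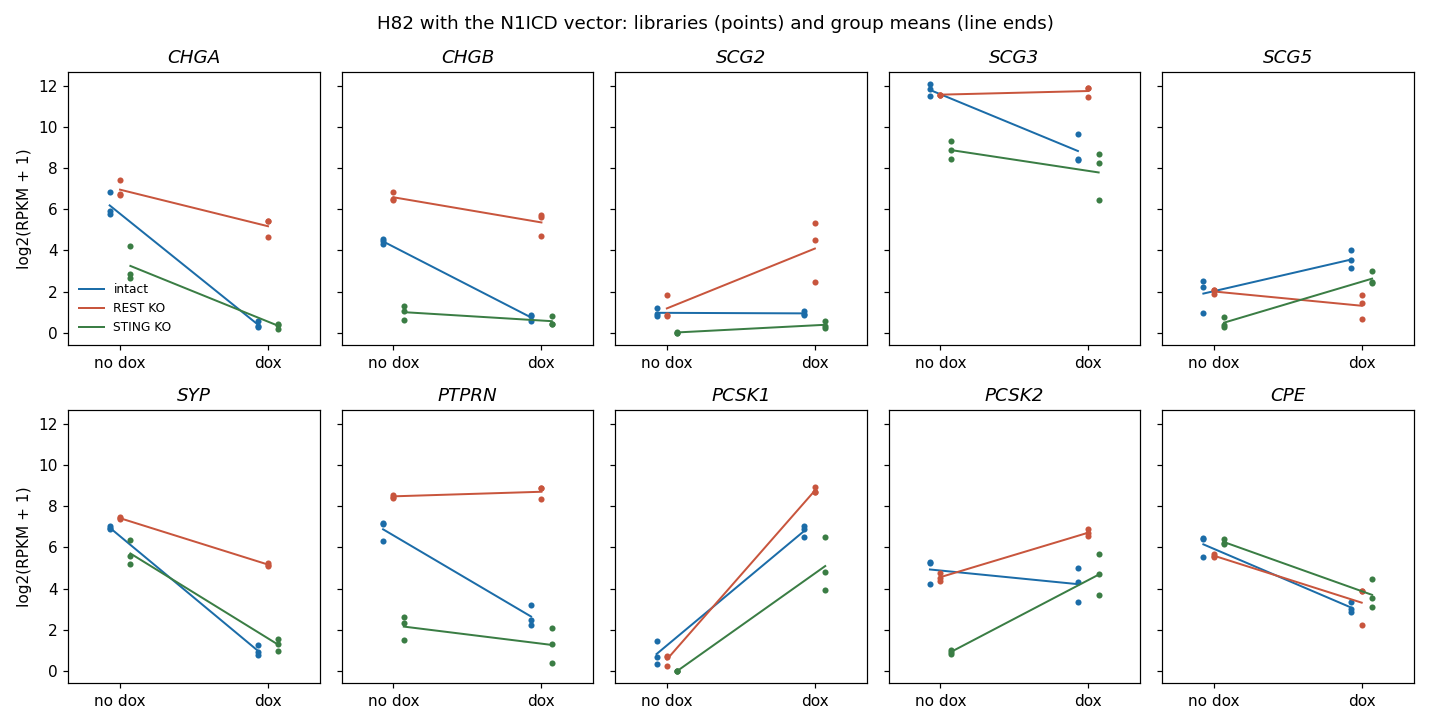
Log2(RPKM + 1) in H82 cells with the *N1ICD* vector, without and with doxycycline, for intact (blue), *REST* KO (red) and *STING* KO (green) cells, with points for libraries and lines joining means of 3. For *CHGA*, *CHGB*, *SCG3*, *SYP* and *PTPRN* the red lines end above the blue lines, which drop. The red lines drop less than the blue for *CHGA*, *CHGB* and *SYP* and stay about level for *SCG3* and *PTPRN*. All 3 lines climb for *PCSK1* and drop for *CPE*.

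H82 libraries labelled *STING* KO already had low granule transcripts without doxycycline. Compared with uninduced intact cells 7 of 10 members were called, all lower, where 14.4% of the 13903 genes tested were called, with a median of -2.16 against -0.11 over all genes. *PTPRN* was 2.34, 1.52 and 2.61 against 6.31, 7.12 and 7.20 (log2 fold change -4.72, SE 0.39, adjusted *P* = 1.54e-07), *PCSK2* 1.03, 0.81 and 0.91 against 4.23, 5.30 and 5.25 (log2 fold change -4.01, SE 0.49, adjusted *P* = 1.07e-05) and *CHGB* 1.06, 0.62 and 1.31 against 4.54, 4.30 and 4.45 (log2 fold change -3.43, SE 0.23, adjusted *P* = 2.16e-08). *CHGA* was 2.85, 2.67 and 4.21 and *SCG3* 8.87, 9.31 and 8.42 (-2.94, adjusted *P* = 8.05e-06 and -2.92, adjusted *P* = 5.87e-05). *SYP* (-1.25) and *SCG5* (-1.41) were the other two. *PCSK1* was listed at 0 in all 3 libraries and *SCG2* at 0, 0.044 and 0. In these same libraries *NEUROD1* was 12.25 against 13.81 in uninduced intact cells, *INSM1* 2.525 against 3.568 and *DLL3* 5.002 against 4.855. *REST* was 5.26 against 4.64 (log2 fold change 0.62, SE 0.22, adjusted *P* = 0.0363). The part of these genes in the lower granule transcripts was not tested. *CPE* was 6.41, 6.21 and 6.15, and its difference from intact cells was 0.11 (SE 0.38).

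With doxycycline, 2 of the 10 members were lower in *STING* KO than in intact cells, against 16.5% of the 13903 genes tested, namely *PTPRN* (log2 fold change -1.38, SE 0.39, adjusted *P* = 0.00901) and *PCSK1* (log2 fold change -1.72, SE 0.43, adjusted *P* = 0.00423), the latter with overlapping libraries. Fitted on these 2 groups alone, limma called 0. From without to with doxycycline in *STING* KO cells, 6 members were called, against 20.2% of the 13903 genes tested. *CHGA* fell to 0.19, 0.44 and 0.38 (log2 fold change -2.91, SE 0.34, adjusted *P* = 2.45e-06), *SYP* to 1.31, 1.54 and 0.97 (log2 fold change -4.43, SE 0.23, adjusted *P* = 5.07e-11) and *CPE* to 3.10, 4.45 and 3.54 (log2 fold change -2.56, SE 0.38, adjusted *P* = 3.81e-05). *PCSK1* rose to 3.94, 4.82 and 6.52 (log2 fold change 5.09, SE 0.43, adjusted *P* = 3.37e-08), *PCSK2* to 3.67, 5.66 and 4.70 (log2 fold change 3.76, SE 0.49, adjusted *P* = 7.04e-06) and *SCG5* to 2.41, 2.99 and 2.48 (log2 fold change 2.14, SE 0.36, adjusted *P* = 0.00013). *PTPRN* was also called, as lower, with a pseudocount of 0.1, with quantile normalization and without library 56 or 60, and *SCG3* with median-centred libraries and without library 57, 59 or 60. With a pseudocount of 0.1 *SCG2* was called as well, as higher, and the count reached 8 there and without library 60. The responses of *STING* KO and intact cells differed for 5 members, against 7.12% of the 13903 genes tested, all with less of a fall or more of a rise in the KO, and the uninduced levels from which they started differed as given above. Uninduced KO means were 3.243 for *CHGA*, 0.999 for *CHGB*, 2.155 for *PTPRN* and 5.705 for *SYP*, each smaller than the fall in intact cells. Values cannot go below 0, so an equal fall could not be seen for these genes, and their interaction cannot show a different response.

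TAS1440 lowered 7 of the 10 genes in COR-L88 and raised 1, where 22.8% of the 13134 genes tested were called. The median log2 fold change was -3.35 against 0.008 over all genes. TAS1440 also raised *REST* from 3.55 to 6.43 and *NOTCH1* from 0.66 to 2.35 (group means), and their part in the member changes was not tested. *SCG2* fell from 5.84, 5.39 and 5.66 to 0.56, 0.86 and 0.92 (log2 fold change -4.85, SE 0.19, adjusted *P* = 7.69e-10), *PCSK1* from 7.79, 7.74 and 8.02 to 3.60, 2.95 and 3.05 (log2 fold change -4.65, SE 0.20, adjusted *P* = 1.23e-09) and *SYP* from 5.00, 4.80 and 5.03 to 0.46, 0.38 and 0.59 (log2 fold change -4.47, SE 0.13, adjusted *P* = 5.3e-11). *SCG3* went from 10.96, 10.80 and 11.03 to 6.88, 7.35 and 7.17 (log2 fold change -3.79, SE 0.20, adjusted *P* = 8.59e-09). *CHGA* (4.69, 4.61 and 4.84 with DMSO, 1.33, 1.27 and 0.77 with TAS1440), *CHGB* (4.39, 4.37 and 4.47 and 1.44, 1.23 and 1.23) and *PTPRN* (3.85, 2.58 and 2.47 and 0.24, 0.74 and 0.81) fell too, with log2 fold changes of -3.59, -3.11 and -2.37. For none of these 7 genes did the DMSO and TAS1440 libraries overlap, and the share of all genes without overlap was not counted.

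*PCSK2* went the other way, from 8.55, 7.96 and 8.09 with DMSO to 9.77, 9.58 and 9.80 with TAS1440 (log2 fold change 1.52, SE 0.32, adjusted *P* = 0.0012). COR-L88 thus had PC2 transcripts above those of the other granule genes after treatment while *PCSK1* fell. *SCG5*, the chaperone of PC2, was 1.75, 2.03 and 1.93 and 1.54, 1.61 and 1.79 (log2 fold change -0.26, SE 0.17, adjusted *P* = 0.209). *CPE* was 5.77, 5.18 and 5.27 and 4.95, 5.31 and 5.41 (log2 fold change -0.19, SE 0.18, adjusted *P* = 0.392), and neither of these genes was called.

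In COR-L88 with TAS1440 and GSI 7 members were called against DMSO, all lower, where 9.02% of the 13134 genes tested were called, with a median of -4.01. *SYP* was 0.69, 0.66 and 0.53, *SCG2* 0.64, 0.86 and 0.73, *CHGA* 0.52, 0.22 and 0.39, *CHGB* 0.62, 0.79 and 0.68 and *PTPRN* 0, 0 and 0.16 with both agents. *SCG3* was 6.65, 6.49 and 6.74, and *PCSK1* was 1.47, 1.49 and 1.10, below its 3.60, 2.95 and 3.05 with TAS1440 alone. Over the same groups *REST* was 3.55 with DMSO, 6.43 with TAS1440 and 6.28 with TAS1440 and GSI, and *NOTCH1* 0.66, 2.35 and 6.73. Of the neuroendocrine markers, *INSM1* was 6.91, 2.12 and 5.75, *DLL3* 5.02, 2.02 and 3.99 and *NEUROD1* 5.69, 6.24 and 5.43 in the same order. The part of these genes in the granule transcripts was not tested.

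Between TAS1440 alone and TAS1440 with GSI 2 members were called, against 14.7% of the 13134 genes tested. *PCSK1* (log2 fold change 1.85, SE 0.20, adjusted *P* = 1.02e-05) and *PCSK2* (log2 fold change 1.43, SE 0.32, adjusted *P* = 0.00273) were higher without the GSI, and *PCSK2* with both agents, at 9.19, 7.61 and 8.07, differed from DMSO by 0.092 (SE 0.32). *SYP* (-0.14, SE 0.13) and *SCG2* (0.04, SE 0.19) were not told apart between these groups. *CHGA* passed the adjusted *P* but not the fold threshold (0.75, adjusted *P* = 0.00221).

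In COR-L88 *STING* KO cells 7 members were called with TAS1440, 1 higher and 6 lower, against 16.0% of the 13134 genes tested. *SYP* fell from 5.42, 5.02 and 5.55 to 0.64, 0.57 and 0.47 (log2 fold change -4.77, SE 0.13, adjusted *P* = 2.11e-11), *SCG2* from 5.74, 5.87 and 5.75 to 0.77, 1.37 and 0.44 (log2 fold change -4.92, SE 0.19, adjusted *P* = 6.62e-10) and *PCSK1* from 7.90, 7.41 and 7.67 to 4.10, 4.40 and 3.81 (log2 fold change -3.56, SE 0.20, adjusted *P* = 1.39e-08), and *PCSK2* rose from 8.56, 8.23 and 8.52 to 9.96, 10.18 and 9.36 (log2 fold change 1.40, SE 0.32, adjusted *P* = 0.00321). *PTPRN* was already low in KO cells with DMSO, at 0.53, 0.21 and 0.40 against 3.85, 2.58 and 2.47 in intact cells (log2 fold change -2.59, SE 0.28, adjusted *P* = 0.000194), the 1 member called between these groups, against 1.47% of the 13134 genes tested. With TAS1440 *PTPRN* was listed at 0 in all 3 KO libraries, so a fall as large as in intact cells could not be seen. With a pseudocount of 0.1 its change in KO cells was -1.95 and was called (adjusted *P* = 0.00939 by limma). Between KO and intact cells with TAS1440, 0 members were called by limma, against 6.53% of the 13134 genes tested, and 3 had an unadjusted *P* under 0.05. The share of all genes under that unadjusted rule was not counted. The responses differed for *PTPRN* (2.00), *PCSK1* (1.09) and *CPE* (1.01), 3 members against 4.23% of the 13134 genes tested, a count that fell to 1 without KO library 41 or 43 and to 2 without any other library of these groups.

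In KP1 TAS1440 lowered 7 of 9 tested members, where 18.8% of the 8260 genes tested were called. With the GSI added 0 were called against DMSO, though 8 of the 9 fold changes were negative. With TAS1440 alone the median log2 fold change was -2.78 against 0.021 over all genes. The KP1 table was normalized separately, so its levels are not set beside those of the human lines. *Chga*, the highest member with DMSO, was 7.29, 7.38 and 6.07 with DMSO, 0.009, 1.28 and 2.82 with TAS1440 and 5.25, 5.17 and 6.80 with TAS1440 and GSI (log2 fold change -5.54, SE 0.71, adjusted *P* = 0.000272 for TAS1440 against DMSO). All 3 TAS1440 libraries were below all 6 others. *Ptprn* was 4.66, 4.72 and 3.49, then 0.057, 0.37 and 0.24 with TAS1440 and 2.17, 2.37 and 3.90 with both agents (log2 fold change -4.07, SE 0.46, adjusted *P* = 0.000137). *Pcsk1* was 3.27, 3.30 and 3.09, 0.0021, 0.056 and 0.25 and 1.31, 1.84 and 3.10 in the same order (log2 fold change -3.12, SE 0.37, adjusted *P* = 0.000174).

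*Chgb* was 3.95, 4.00 and 2.48 with DMSO, 0.02, 0.42 and 0.79 with TAS1440 and 2.67, 3.05 and 3.85 with both (log2 fold change -3.07, SE 0.44, adjusted *P* = 0.00055). *Syp* was 3.15, 3.26 and 2.82, 0.018, 0.29 and 0.57 and 2.67, 2.81 and 3.24 (log2 fold change -2.78, SE 0.21, adjusted *P* = 1.17e-05), and *Scg3* 2.41, 2.46 and 2.05, 0, 0.074 and 0.38 and 1.94, 2.23 and 2.63 (log2 fold change -2.15, SE 0.20, adjusted *P* = 4.18e-05). Each of these genes was below 1 in the TAS1440 libraries and above it in the other 6. *Scg5* was lower with TAS1440 too (log2 fold change -1.04, SE 0.20, adjusted *P* = 0.00301), a call lost without DMSO library 1 or 2. *Scg2* was 4.69, 4.81 and 2.76 with DMSO and 3.83, 0.10 and 1.05 with TAS1440 (log2 fold change -2.43, SE 1.00, adjusted *P* = 0.0863), library 4 standing far above 5 and 6, and without library 4 it was called, at -3.51. *Cpe* was 1.90, 1.98 and 1.62 and 1.91, 2.58 and 1.71 (log2 fold change 0.23, SE 0.23, adjusted *P* = 0.465). *Pcsk2* did not pass the filter and reached at most 0.27.

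With TAS1440 alone against TAS1440 and GSI 7 members were lower, against 16.5% of the 8260 genes tested, led by *Chga* (-4.37), *Chgb* (-2.78), *Syp* (-2.62) and *Ptprn* (-2.59). Without GSI library 9 *Scg5* missed the fold threshold there, at -0.82. Between TAS1440 with GSI and DMSO limma called 0 members, against 1.21% of the 8260 genes tested, and 2 had an unadjusted *P* under 0.05, namely *Pcsk1* (-1.14) and *Ptprn* (-1.47). The share of all genes under that unadjusted rule was not counted. The lack of calls does not place every member back at its DMSO level. *Scg2* means were 4.09 with DMSO, 1.66 with TAS1440 and 1.93 with both agents (-2.155 against DMSO), and *Chga* was at -1.18 against DMSO. GSI library 9 lay above 7 and 8 for all 10 genes, and without it *Ptprn* (-2.02) and *Pcsk1* (-1.65) were called lower than with DMSO. *Rest* was 0.033, 0.025 and 0.033 with DMSO, 2.48, 1.99 and 1.65 with TAS1440 and 0.99, 0.72 and 1.02 with both agents, and its part in the member changes was not tested. DMSO libraries 1 and 2 were the closest replicates of the series, with an SD of their gene differences of 0.137 against 0.344 and 0.345 to library 3. Averaging these libraries as 1, which was chosen after their values were seen, left 6 called members, *Scg5* being lost at -0.98.

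**Figure D4:**
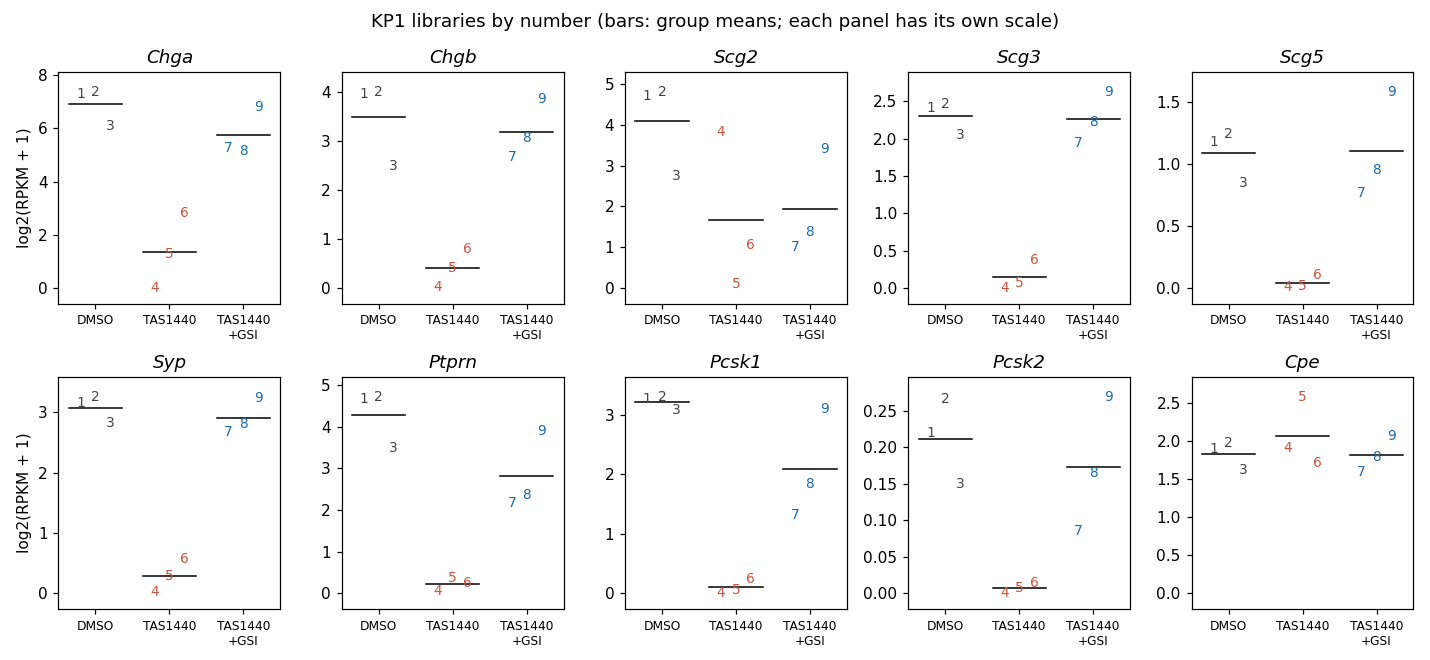
Log2(RPKM + 1) in the 9 KP1 libraries, each plotted as its number, with bars for the mean of 3 and a scale for each gene. TAS1440 libraries 4, 5 and 6 lie below the others for *Chga*, *Chgb*, *Scg3*, *Scg5*, *Syp*, *Ptprn* and *Pcsk1*, and GSI library 9 lies above 7 and 8 in every panel.

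Other genes of the granule and of neighbouring families were taken from 3 lists. These lists, like the members, were chosen with results of these data known. The 31 granule partners, 30 of them in the human table, cover calcium sensors, small GTPases, priming factors and SNAREs of exocytosis. With *N1ICD* they were 1 higher and 11 lower of 25 tested in H82, 1 higher and 11 lower of 26 tested in H524 and 0 higher and 25 lower of 29 tested in H69, with medians of -0.64, -0.63 and -2.83, where 27.1%, 18.6% and 41.8% of all genes tested were called. With TAS1440 they were 3 higher and 14 lower of 25 tested in COR-L88 and 0 higher and 9 lower of 16 tested in KP1, where 22.8% and 18.8% of all genes were called. The calcium sensor *SYT1* fell from 8.90 to 4.34 in H82 (-4.56, SE 0.41), from 8.30 to 5.13 in H524 and from 9.86 to 2.94 in H69. *RAB3A*, a vesicle GTPase, fell in H82 (-4.52, SE 0.39) and H524 (-2.57, SE 0.31), whereas the granule-docking GTPase *RAB27A* rose in H82 (1.40, SE 0.21) and the related *RAB3D* in H524 (1.36, SE 0.19). *SYT4* was 8.10, 7.74 and 7.88 without and 0, 0 and 0 with doxycycline in H69 and 9.67, 10.08 and 10.35 with DMSO and 0.39, 0.42 and 0.35 with TAS1440 in COR-L88, where its log2 fold change of -9.64 (SE 0.17) was more negative than that of any member. The priming factor *UNC13A* also fell in COR-L88 (-4.98, SE 0.18), while *PAM*, which amidates peptides, and *RAB27A* rose there (1.21, SE 0.19, and 1.20, SE 0.14). In KP1 *Vgf*, another granin-like precursor, and *Syt4* fell (-3.14, SE 0.40, and -2.95, SE 0.36).

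With doxycycline, *REST* KO against intact H82 cells gave 9 higher and 0 lower of 25 tested granule partners, with a median of 0.46, where 17.6% of all genes were called and the median of all genes was -0.059. *UNC13A* was 6.22, 6.30 and 6.06 in the KO and 1.06, 0.84 and 0.98 in intact cells (log2 fold change 5.23, SE 0.26, adjusted *P* = 5.71e-11), and *VGF* 6.04, 5.65 and 5.33 and 0.94, 0.44 and 0.56 (log2 fold change 5.02, SE 0.32, adjusted *P* = 1.73e-09). *SYT1*, singled out after its values were seen, was 3.73 and 4.34 in these groups (-0.61, SE 0.41), low in both. In the other lists *FURIN* (2.02, SE 0.28) and *SYN1* (2.96, SE 0.14) had the largest differences, both higher in the KO.

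The other convertases and carboxypeptidases form a list of 11. They were 0 higher and 1 lower of 8 tested in H82 with *N1ICD*, 2 higher and 0 lower of 8 tested in H524, 2 higher and 2 lower of 8 tested in H69, 4 higher and 0 lower of 8 tested in COR-L88 with TAS1440 and 2 higher and 0 lower of 7 tested in KP1. In the same order 27.1%, 18.6%, 41.8%, 22.8% and 18.8% of all genes were called. With this few genes tested the counts are no result about the list, and the genes named are single genes. *FURIN*, the convertase of the constitutive pathway in most cells, rose in H524 (2.95, SE 0.28) and H69 (3.32, SE 0.10), and as *Furin* in KP1 (1.56, SE 0.26). *AEBP1*, a secreted carboxypeptidase-like protein of connective tissue, rose in H69 (2.00, SE 0.079) and in KP1 as *Aebp1* (4.91, SE 0.23). *CPM*, a surface carboxypeptidase, rose in COR-L88 (3.03, SE 0.17), and *MBTPS1*, the site-1 protease, too (1.09, SE 0.19). *CPZ* rose in H524 (2.97, SE 0.63). *CPD*, a carboxypeptidase of the trans-Golgi, fell in H82 (-1.69, SE 0.23) and H69 (-1.01, SE 0.076), and *PCSK4* fell in H69 (-3.55, SE 0.13).

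The synaptophysin family and synaptic vesicle list of 10 genes gave 0 higher and 2 lower of 8 tested in H82, 2 higher and 0 lower of 8 tested in H524, 2 higher and 5 lower of 9 tested in H69, 2 higher and 3 lower of 8 tested in COR-L88 and 1 higher and 2 lower of 4 tested in KP1. The shares of all genes called were again 27.1%, 18.6%, 41.8%, 22.8% and 18.8%, and the counts in H82 and H524 were near them. *SYPL2*, a relative of *SYP*, rose in H524 (3.56, SE 0.25), H69 (2.31, SE 0.17) and COR-L88 (1.20, SE 0.20), as did *SYNGR2* in H69 (1.34, SE 0.11) and COR-L88 (1.39, SE 0.18). *SYP* fell in these lines, and also in H82, where 0 genes of this list were called higher, and in KP1, where 1 was. *SYPL1* rose in H524 (1.42, SE 0.17). Falls were led by *SYN1* in H82 (-2.17, SE 0.14), *SYNGR3* and *SYNPR* in H69 (-3.94, SE 0.077, and -3.07, SE 0.073), *SV2B* in COR-L88 (-3.06, SE 0.15) and *Sv2a* in KP1 (-2.22, SE 0.17).

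Over the 20 human group means, the members varied in how closely they moved with each other. The correlation of each with the mean of the other 9, after scaling each to unit variance, was 0.874 for *CHGB*, 0.855 for *CHGA*, 0.842 for *SCG3*, 0.673 for *SYP*, 0.622 for *SCG2* and 0.603 for *PTPRN*. It was 0.309 for *PCSK1*, 0.114 for *PCSK2*, 0.081 for *CPE* and -0.084 for *SCG5*. These points share lines, control libraries and treatments, and the values are a description. Among 9399 other genes whose group means spanned at least 2, the 5 most like the mean of the members were *ACTL6B* (Pearson r 0.96), a subunit of the neuronal BAF chromatin remodeler, *PAX5* (0.95), a transcription factor, *NRSN1* (0.94), a neuronal vesicle protein, *SNAP25* (0.94), a SNARE of exocytosis that is also in the list of granule partners, and *CECR6* (0.92). Their group means ranged from 0 to 4.52 for *ACTL6B*, from 0.394 to 5.715 for *SNAP25* and from 0 to 8.39 for *NRSN1*. Those of *PAX5* ranged only from 0.001 to 2.045 and those of *CECR6* from 0.087 to 2.517, little more than the span of 2 required. By Spearman's rho 2 of these 5 were among the top 5.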

How the data were processed

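Bulk RNA-Seq of poly(A) RNA was measured in 60 human and 9 mouse libraries. The authors trimmed reads with Cutadapt, aligned them to hg19 (human) or mm10 (KP1) with STAR, quantified genes with RSEM, scaled them by TMM in edgeR and deposited log2 values of RPKM + 1. Versions and the gene annotation are not given in the sources used here. The deposited log2 RPKM values hold no counts, so depth and counting error are unknown, and the human and KP1 tables were normalized separately.

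Log2 values were tested with limma 3.58.1 (R 4.3.3; lmFit, contrasts.fit and eBayes with a mean-variance trend, two-sided), in place of the voom weights of the study, which need counts. Each line was fitted with 1 mean per group, and untreated lines in a model of their own. Genes were kept where 3 or more libraries of the fit reached a log2 value of 1. Benjamini-Hochberg adjustment ran over every gene kept, and a call needed an adjusted *P* below 0.05 with a log2 fold change of 1 or more in either direction. Interactions were contrasts of 2 differences. The fit was tested on simulated data.

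Relative library sizes were estimated from the smallest steps of the values of low genes. RE1 searches used GRCh37 with GENCODE v44lift37 and RefSeq promoters of GRCh38.p14. The members and lists were chosen with earlier results of these data known. All members were named, and of each other list up to 2 called genes per direction with the largest change and no overlap between groups, in the 6 comparisons of induced or treated cells and *REST* KO. Alternatives were no filter, quantile normalization, a pseudocount of 0.1, libraries centred on their median, variances without a trend, a fit on the compared groups alone, each library left out, and, chosen after seeing the data, KP1 DMSO libraries 1 and 2 averaged. Shares of all genes called are given for the main fit only. A further marker gene is not reported here.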

Additional observations from a re-analysis of the deposited data

Results flagged for a closer look

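In H82 the response to doxycycline differed between *REST* KO and intact cells by the interaction term of limma for 9 of the 10 genes. Of the 13903 genes tested, 12.9% were called for this term. The difference in log2 fold change, KO minus intact, was 4.00 for *CHGA*, 2.47 for *CHGB*, 2.93 for *SCG2*, 3.14 for *SCG3*, 3.72 for *SYP*, 4.46 for *PTPRN*, 2.21 for *PCSK1*, 2.87 for *PCSK2* and -2.35 for *SCG5*. *NOTCH1* was higher in the induced KO libraries (9.55 against 4.86), and its part in these differences was not tested.

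The same interaction for *STING* KO was called for *CHGA* (2.87), *CHGB* (3.25), *SYP* (1.53), *PTPRN* (3.34) and *PCSK2* (4.47), against 7.12% of the 13903 genes tested. All 5 started lower in uninduced *STING* KO than in uninduced intact cells.

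In H524 the responses to *N1ICD* and to *REST* differed for *CHGB* (-1.78), *SCG2* (4.24) and *PCSK1* (2.37), *N1ICD* minus *REST*, against 15.6% of the 13648 genes tested. *REST* was 6.87, 10.72 and 9.43 in the induced *REST* libraries.

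In COR-L88 the response to TAS1440 differed between *STING* KO and intact cells for *PTPRN* (2.00), *PCSK1* (1.09) and *CPE* (1.01), against 4.23% of the 13134 genes tested. *PTPRN* was 0.38 in KO and 2.97 in intact cells with DMSO, so KO cells could not show the fall of intact cells.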

How the results depend on the processing

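No paired analysis was possible because the titles number the human libraries in 1 run, so the groups of a line share no replicate number. Of the counts of called members, those below moved by more than 1.5 times, and the cause was not tested. The share of all genes called under each setting is not set beside them, so a moved count is no result about the members alone. Fitting only the compared groups gave 0 members for induced *STING* KO against intact H82, 0 for *REST* doxycycline in H524, 2 for the uninduced *N1ICD* vector against parental H524 and 1 for the *STING* KO interaction in COR-L88. A pseudocount of 0.1 gave 1 for uninduced *REST* KO against intact H82, 1 for the uninduced vector against parental H82, 5 for TAS1440 alone against TAS1440 with GSI in COR-L88 and 2 for *STING* KO against intact COR-L88 with TAS1440. That last count was 1 by quantile normalization and 1 with median-centred libraries. Leaving out 1 library gave 0 to 2 members for *REST* doxycycline in H524, 2 to 5 for the uninduced *N1ICD* vector in H524, 0 to 1 for the uninduced vector in H69 (1 without library 49), 0 to 1 for *STING* KO against intact COR-L88 with TAS1440, 1 to 2 for the *STING* KO interaction there and 0 to 2 for TAS1440 with GSI against DMSO in KP1.

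Reversals were of genes that were not called. Leave-one-out log2 fold changes ranged from -0.106 to 0.0901 for *SCG2* with *N1ICD* in H82, from -0.398 to 0.379 for *PTPRN* with *N1ICD* in H524 (-0.0236 with median-centred libraries), and, with *REST* in H524, from -0.897 to 0.153 for *SCG3* and from -0.020 to 0.228 for *PCSK1*. *PCSK2* with TAS1440 and GSI in COR-L88 ranged from -0.36 to 0.432. *CPE* with *N1ICD* in H69 was -0.0121 by quantile normalization. In KP1 *Cpe* ranged from -0.0235 to 0.412 for TAS1440 against DMSO and from -0.00451 to 0.431 against TAS1440 with GSI, where *Scg2* ranged from -1.36 to 0.508. For TAS1440 with GSI against DMSO, *Scg3* ranged from -0.224 to 0.123 (0.0235 with DMSO libraries 1 and 2 averaged), *Cpe* from -0.144 to 0.0915 (0.0333 averaged) and *Scg5* from -0.229 to 0.179 (-0.0139 with a pseudocount of 0.1). By Spearman's rho 2 of the 5 genes most like the members were shared. Depth is unknown, so values near 0 carry no detection limit.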
